A study of Mus musculus with 16 samples.

Results

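The genes described here are 10 genes of the Wnt signalling pathway: the ligands Wnt3, Wnt3a, Wnt5a and Wnt8a, the secreted regulators Rspo3 and Dkk1, and the target and feedback genes Axin2, Lef1, Sp5 and Nkd1. They were chosen by name with earlier results of these data known, and all 10 were among the 29233 genes tested. The counts of members called are therefore a description and no test of the pathway. The cells were CGR8-Myh6-GFP murine embryonic stem cells (mESCs), a feeder-free line from the inner cell mass. They carry a green fluorescent reporter for Myh6, the alpha myosin heavy chain of heart muscle. All cultures differentiated spontaneously on gelatin-coated multiwell plates, with wells pooled for each sample, and were treated from day 4 for 6 h or 24 h. At each time point the vehicle dimethyl sulfoxide (DMSO) was given in 2 samples, the hawthorn leaf and flower extract WS1442 at 0.25 mg/ml in 3 samples, and its methanol fraction (MeOH eluate), which is enriched in oligomeric procyanidins, at 0.1 mg/ml in 3 samples, making 16 one-colour arrays. The question was which transcripts change early after exposure to an extract under study for its effect on heart muscle formation, and whether the fraction acts as the extract does. The doses of extract and fraction differ, so every difference between them is a difference between these preparations at these doses.

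Wnt ligands are secreted lipid-modified proteins that bind Frizzled receptors. In the canonical branch, binding together with the co-receptors Lrp5 and Lrp6 stops the destruction of beta-catenin, which then enters the nucleus and works with the DNA-binding proteins Lef1, Tcf7, Tcf7l1 and Tcf7l2. Other ligands, with Wnt5a as the standard example, act mainly through Ror receptors and planar polarity proteins. Canonical signalling is needed for the primitive streak and mesoderm, and its later restraint by inhibitors such as Dkk1 favours heart muscle.

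The members were found on the array at 14 probes. 4 probes carry the gene symbol in the scanner files, and the other 10 carry a transcript accession there and were named through the RefSeq gene table. The brightest probe of every member was well above background on all 16 arrays and none was saturated. Wnt5a and Rspo3 had a second measurable probe, at mm9 chr14:29340427-29340486 and chr10:29172236-29172295. The 2 further Lef1 probes were well above background on 1 and 2 of the 16 arrays, failed the filter and were not tested, so Lef1 rests on 1 probe. All values below are log2 signal after quantile normalization, and a change is called where limma's Benjamini-Hochberg adjusted p over all 29233 genes is under 0.05. Levels are not compared between probes, since probes differ in brightness at equal RNA.

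Between 55.1% and 63% of gene spots were well above background per array, and arrays of one group correlated at 0.9838 to 0.995. The RNA integrity number was between 8.6 and 10. All 6 h arrays lay on 1 slide with 1 scan and all 24 h arrays on another, so levels at 6 h and 24 h cannot be told apart from the slides, while each treated sample shares its slide with its controls. The labels do not say whether the replicates came from separate cultures, so the p-values measure the spread between these samples, which may be technical. The markers of the undifferentiated state were all well above background in all 6 groups, and Myh6 itself had no probe that passed the filter at these times.

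Both preparations were set against the same DMSO arrays of their time point. WS1442 at 6 h changed 4 of the 10 genes: Rspo3 and Lef1 were upregulated and Wnt3 and Dkk1 downregulated. Over all genes, 4.15% were called higher and 1.46% lower in that comparison. MeOH eluate at 6 h changed 6 of 10: Rspo3 and Lef1 were again higher, and Wnt3, Wnt5a, Dkk1 and Sp5 were lower, where 8.66% of all genes were higher and 8.38% lower. At 24 h WS1442 left 2 of 10 called, Wnt3 and Wnt5a, both lower, against 11.9% of all genes lower and 12.9% higher. MeOH eluate at 24 h changed 4 of 10: Wnt3 and Wnt5a were lower and Dkk1 and Sp5 higher, against 8.59% and 9.63% of all genes. Wnt3 was the member called in all 4 comparisons, and Wnt3a, Wnt8a, Axin2 and Nkd1 were called in none of them. The changes were moderate. The study's methods set limits of more than 2-fold and p under 0.05, which was taken here as unadjusted. At these limits 0 of the 10 members passed in any of the 4 comparisons at their brightest probe. The second probe of Wnt5a passed them with MeOH eluate at 6 h, at 2.09-fold lower. Of all genes 0.431% passed these limits with WS1442 and 2.1% with MeOH eluate at 6 h, and 2.09% and 2.98% at 24 h. The median log2 fold change of the 10 members was 0, 0.15, 0.02 and 0.06 in the 4 comparisons in the same order, beside -0.01, 0, 0.05 and 0.01 over all genes.

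**Figure D1:**
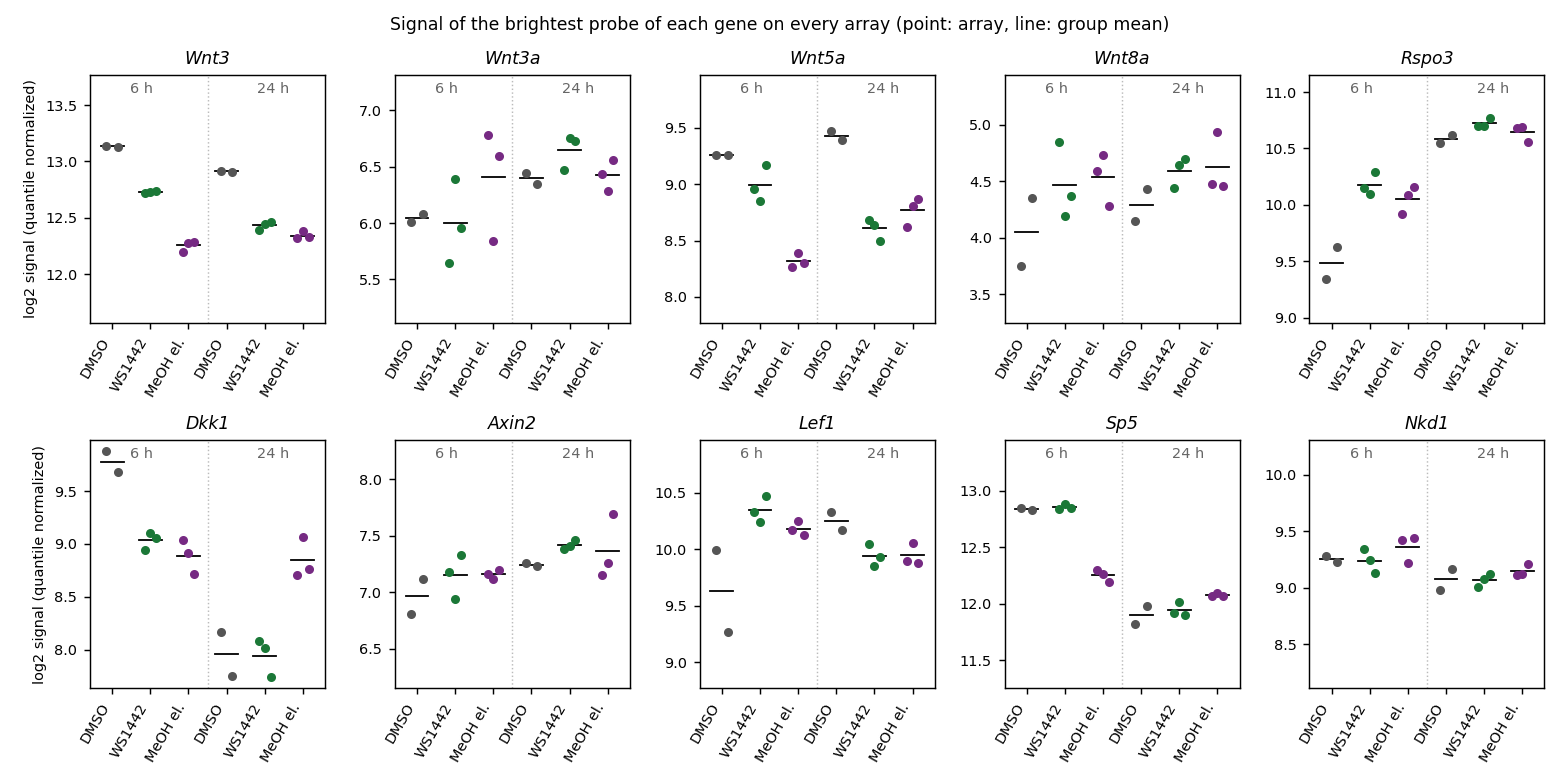
The plot shows the log2 signal of the brightest probe of each of the 10 genes on all 16 arrays, by agent and time, with the group mean as a line; each panel has its own range. Wnt3 falls from 13.14 to 12.73 and 12.26 at 6 h with points of a group nearly on top of each other, whereas the 2 DMSO values of Lef1 at 6 h, 9.99 and 9.27, lie far apart.

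Wnt3, a canonical ligand that in the embryo is needed for the primitive streak, lies at GRCm38 chr11:103774175-103818021 and was the most evenly measured member. At 6 h its log2 signal was 13.14 and 13.13 with DMSO, 12.72, 12.73 and 12.74 with WS1442, and 12.20, 12.28 and 12.29 with MeOH eluate. The 3 groups did not overlap and stood in that order. Against DMSO, Wnt3 fell 1.33-fold with WS1442 (log2 fold change -0.41, SE 0.04, adjusted p = 8.7e-05) and 1.84-fold with MeOH eluate (-0.88, SE 0.04, adjusted p = 5.72e-09). At 24 h the values were 12.92 and 12.91 with DMSO, 12.39, 12.45 and 12.46 with WS1442, and 12.32, 12.38 and 12.33 with MeOH eluate. Both treated groups were again below every control, by 1.4-fold with WS1442 (-0.48, SE 0.04, adjusted p = 4.22e-06) and 1.48-fold with MeOH eluate (-0.57, SE 0.04, adjusted p = 2.98e-07).

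Wnt5a, the classical ligand of the beta-catenin independent branch, lies at GRCm38 chr14:28504543-28527448. At 6 h it read 9.26 on both DMSO arrays, 8.96, 8.85 and 9.17 with WS1442, and 8.27, 8.39 and 8.30 with MeOH eluate. It fell 1.92-fold with MeOH eluate (-0.94, SE 0.09, adjusted p = 1.2e-05). With WS1442 the 3 values lay under both controls, but the log2 difference of -0.26 (SE 0.09) did not pass after adjustment (adjusted p = 0.125). At 24 h Wnt5a was 9.47 and 9.39 with DMSO, 8.68, 8.64 and 8.50 with WS1442, and 8.62, 8.81 and 8.87 with MeOH eluate. The 2 treated groups overlapped each other and lay wholly below the controls, with a fall of 1.77-fold for WS1442 (-0.82, SE 0.09, adjusted p = 4.5e-05) and 1.59-fold for MeOH eluate (-0.67, SE 0.09, adjusted p = 0.000165). The second Wnt5a probe gave the same 3 calls and the same miss: its log2 fold change with WS1442 was -0.46 at 6 h (adjusted p = 0.0936) and -0.65 at 24 h (adjusted p = 0.00574), and with MeOH eluate -1.06 (adjusted p = 0.000256) and -0.75 (adjusted p = 0.00226), with p-values adjusted over all 36718 kept probes.

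Wnt3a, a canonical ligand of the late streak and tail bud, scattered widely between replicates. Its log2 signal was 6.01 and 6.08 with DMSO at 6 h, 5.65, 6.39 and 5.96 with WS1442, and 6.78, 5.84 and 6.59 with MeOH eluate, so the groups overlapped. At 24 h all Wnt3a values were between 6.28 and 6.75. The 95% intervals of its log2 fold changes ran from -0.56 to 0.47 for WS1442 at 6 h and -0.26 to 0.77 at 24 h. With MeOH eluate they ran from -0.16 to 0.87 and from -0.48 to 0.54. Wnt8a, another ligand of the early streak, had a log2 signal of 3.75 and 4.35 on the DMSO arrays at 6 h and 4.19 to 4.85 on the treated arrays. Its log2 fold changes were 0.42, 0.48, 0.30 and 0.33, all above 0 and none called (adjusted p from 0.232 to 0.45, SE 0.26 each). At this spread even the 1.4-fold difference of Wnt8a with MeOH eluate at 6 h did not pass. Its signal also lay near the background limit, so the sizes are uncertain. On the DMSO arrays of 6 h, 1 of the further Lef1 probes was well above background at 3.55 and not at 3.05.

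**Figure D2:**
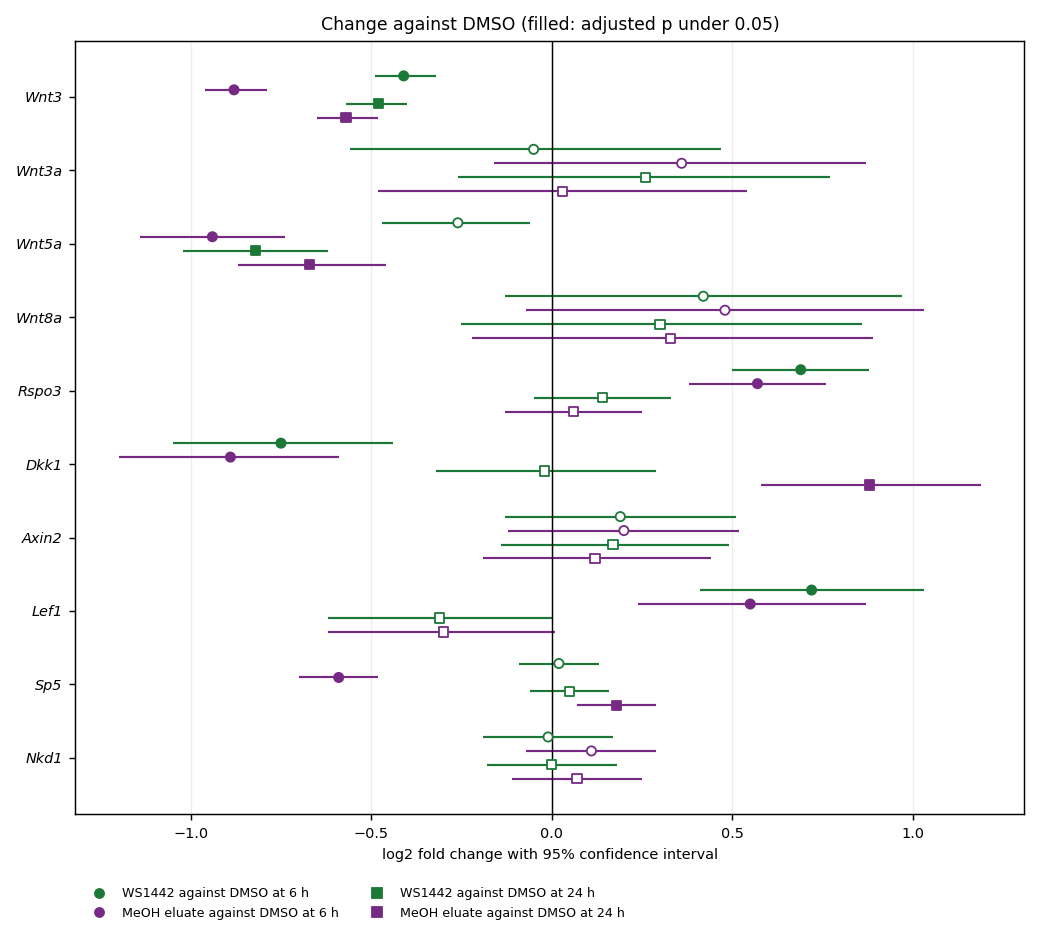
Log2 fold change against DMSO of the 10 genes with its 95% confidence interval from limma, for WS1442 (green) and MeOH eluate (purple) at 6 h (circles) and 24 h (squares); filled symbols passed the adjusted p of 0.05. Wnt3 and Wnt5a lie left of 0 throughout, Dkk1 with MeOH eluate stands at -0.89 at 6 h and 0.88 at 24 h, and the intervals of Axin2 and Nkd1 cross 0 in all 4 comparisons.

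Rspo3, a secreted R-spondin that raises Wnt receptor levels at the cell surface through Lgr receptors, was upregulated at 6 h. It lies at GRCm38 chr10:29453106-29535867. At 6 h its log2 signal was 9.34 and 9.63 with DMSO, 10.15, 10.10 and 10.29 with WS1442, and 9.92, 10.09 and 10.16 with MeOH eluate. All 6 treated arrays exceeded both controls, by 1.62-fold with WS1442 (0.69, SE 0.09, adjusted p = 0.000739) and 1.48-fold with MeOH eluate (0.57, SE 0.09, adjusted p = 0.000541). At 24 h the 8 values lay between 10.55 and 10.77 and neither change passed (0.14, adjusted p = 0.288 for WS1442 and 0.06, adjusted p = 0.755 for MeOH eluate). The second Rspo3 probe was called higher with WS1442 at 6 h (0.62, SE 0.12, adjusted p = 0.0083), and with MeOH eluate it showed 0.30 (SE 0.12), which did not pass (adjusted p = 0.0904).

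Dkk1, a secreted antagonist that blocks the co-receptor Lrp6 and is itself a target of the pathway, gave the widest swing over time. At 6 h it was 9.88 and 9.68 with DMSO, 8.94, 9.10 and 9.06 with WS1442, and 9.04, 8.91 and 8.72 with MeOH eluate. Every treated array was below the controls, by 1.68-fold with WS1442 (-0.75, SE 0.14, adjusted p = 0.0091) and 1.85-fold with MeOH eluate (-0.89, SE 0.14, adjusted p = 0.000699). Without replicate 1 of DMSO at 6 h the WS1442 value was -0.65 and did not pass. At 24 h Dkk1 was 8.17 and 7.75 with DMSO, 8.08, 8.01 and 7.74 with WS1442, and 8.71, 9.07 and 8.76 with MeOH eluate. The WS1442 group overlapped the controls (-0.02, 95% interval -0.32 to 0.29), while the MeOH eluate group lay above all of them, by 1.85-fold (0.88, SE 0.14, adjusted p = 0.000459). The group means of Dkk1 with MeOH eluate were 8.89 ± 0.16 (SD, n = 3) at 6 h and 8.85 ± 0.20 (SD, n = 3) at 24 h, and those of DMSO 9.78 ± 0.14 (SD, n = 2) and 7.96 ± 0.29 (SD, n = 2). The time points lie on different slides, so those 2 levels of each group are set side by side only.

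Sp5, a zinc finger factor directly induced by beta-catenin, responded to MeOH eluate alone among the called changes. It read 12.85 and 12.83 with DMSO at 6 h, 12.84, 12.88 and 12.85 with WS1442, and 12.30, 12.26 and 12.19 with MeOH eluate. WS1442 overlapped the controls (0.02, 95% interval -0.09 to 0.13), and MeOH eluate was 1.5-fold lower (-0.59, SE 0.05, adjusted p = 3.68e-06). At 24 h the DMSO values were 11.82 and 11.98, those of WS1442 11.92, 12.01 and 11.90, and those of MeOH eluate 12.07, 12.09 and 12.07. The rise of 1.13-fold with MeOH eluate passed narrowly (0.18, SE 0.05, adjusted p = 0.0262) and missed the threshold under 5 of 12 other analysis settings. It also missed it without replicate 1 of DMSO (0.10) and without each MeOH eluate array of 24 h in turn.

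Lef1, a DNA-binding partner of beta-catenin and also its target, lies at GRCm38 chr3:131110297-131224357. At 6 h its log2 signal was 9.99 and 9.27 with DMSO, 10.33, 10.24 and 10.47 with WS1442, and 10.17, 10.25 and 10.13 with MeOH eluate. The treated arrays were above both controls, by 1.65-fold with WS1442 (0.72, SE 0.15, adjusted p = 0.0123) and 1.47-fold with MeOH eluate (0.55, SE 0.15, adjusted p = 0.0176). The 2 controls differed by as much as the larger change, and the calls depended on the lower one: without replicate 2 of DMSO at 6 h the log2 fold changes were 0.36 and 0.20 and neither passed, and without replicate 1 they were 1.08 and 0.91. The WS1442 call was also lost without its replicate 3 (value 0.66), and neither passed in a fit of the 8 arrays of 6 h alone. At 24 h Lef1 was 10.33 and 10.17 with DMSO, 10.05, 9.85 and 9.93 with WS1442, and 9.90, 10.06 and 9.88 with MeOH eluate. The treated values were all lower, by -0.31 and -0.30 on the log2 scale, with adjusted p = 0.145 and 0.182; in a fit of the 24 h arrays alone both passed (adjusted p = 0.0211 and 0.0281).

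Axin2 and Nkd1, 2 feedback inhibitors that many tissues switch on in response to beta-catenin, were not called in any comparison. Axin2 was 6.81 and 7.12 with DMSO at 6 h, 6.94 to 7.33 with WS1442 and 7.12 to 7.2 with MeOH eluate. At 24 h it was 7.26 and 7.23 with DMSO, 7.38 to 7.46 with WS1442 and 7.15 to 7.69 with MeOH eluate. Its 4 log2 fold changes against DMSO were 0.19, 0.20, 0.17 and 0.12, each with SE 0.15 and with intervals that reached from -0.19 to 0.52. The Axin2 probe is 46 bases long and holds a run of 14 T, the longest run of 1 base among the members' probes. Nkd1 was between 9.13 and 9.44 on all 8 arrays of 6 h and between 8.98 and 9.21 on all 8 of 24 h, and its 4 fold changes lay between -0.01 and 0.11 on the log2 scale, with 95% intervals inside -0.19 to 0.29.

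The start sites of Dkk1 and Sp5 are shown because both genes are known beta-catenin targets and changed with MeOH eluate. Both fell at 6 h and were higher at 24 h, where the Sp5 rise passed only narrowly. The 250 bases before the start site come from RefSeq on GRCm38.p6, for Dkk1 at chr19:30549497-30549746 on the minus strand and for Sp5 at chr2:70474673-70474922 on the plus strand, each read 5′ to 3′ along the gene. Capitals mark the letters of the Tcf/Lef core searched on both strands: CTTTGAA or CTTTGAT or CTTTGTA or CTTTGTT.
Dkk1: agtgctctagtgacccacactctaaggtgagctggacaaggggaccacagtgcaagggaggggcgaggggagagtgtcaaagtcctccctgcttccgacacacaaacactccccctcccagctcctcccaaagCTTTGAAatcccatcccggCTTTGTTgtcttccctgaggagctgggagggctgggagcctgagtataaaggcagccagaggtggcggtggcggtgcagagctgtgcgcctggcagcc
Sp5: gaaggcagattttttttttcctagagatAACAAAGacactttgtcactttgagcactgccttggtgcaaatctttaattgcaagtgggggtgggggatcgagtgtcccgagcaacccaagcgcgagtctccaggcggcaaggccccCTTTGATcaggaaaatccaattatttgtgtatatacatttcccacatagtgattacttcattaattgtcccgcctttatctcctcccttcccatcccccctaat

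Dkk1 holds 2 of these cores, starting at -117 and -98 from the start site, and Sp5 holds 2, at -222 on the opposite strand and at -104. With the 50 bases after the start site included, windows of 7 of the 10 members were searched, at 10 start sites. Windows on chromosome 18, where Wnt8a lies, were left out of the members' search but not of the share over all windows. Of these sites 4 held a core. Besides those of Dkk1 and Sp5, Wnt3 has 1 at 19 bases into the transcript and the last of 4 Lef1 start sites has 1. Of all 32851 promoter windows 16.9% hold any of the 4 cores. The windows of Wnt3a, Axin2 and Nkd1 do not contain these letters. A match is a description of the sequence and no measurement of binding.

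The MeOH eluate at 0.1 mg/ml and WS1442 at 0.25 mg/ml were set against each other at both times. At 6 h 3 of the 10 genes differed, all lower with MeOH eluate, where 12.1% of all genes were called in either direction. Wnt5a was 1.6-fold lower (-0.67, SE 0.08, adjusted p = 0.000279), Sp5 1.52-fold (-0.61, SE 0.05, adjusted p = 4.32e-06) and Wnt3 1.38-fold (-0.47, SE 0.04, adjusted p = 3.74e-06), and in each case no MeOH eluate array overlapped a WS1442 array. At 24 h 1 of 10 differed, where 14.6% of all genes were called: Dkk1 was 1.87-fold higher with MeOH eluate (0.90, SE 0.13, adjusted p = 0.000487). For Rspo3 and Lef1, called with both preparations at 6 h, the difference between them was -0.12 (95% interval -0.29 to 0.05) and -0.16 (95% interval -0.44 to 0.11). For Axin2 and Nkd1 the intervals of the difference at 6 h were -0.27 to 0.29 and -0.04 to 0.28.

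**Figure D3:**
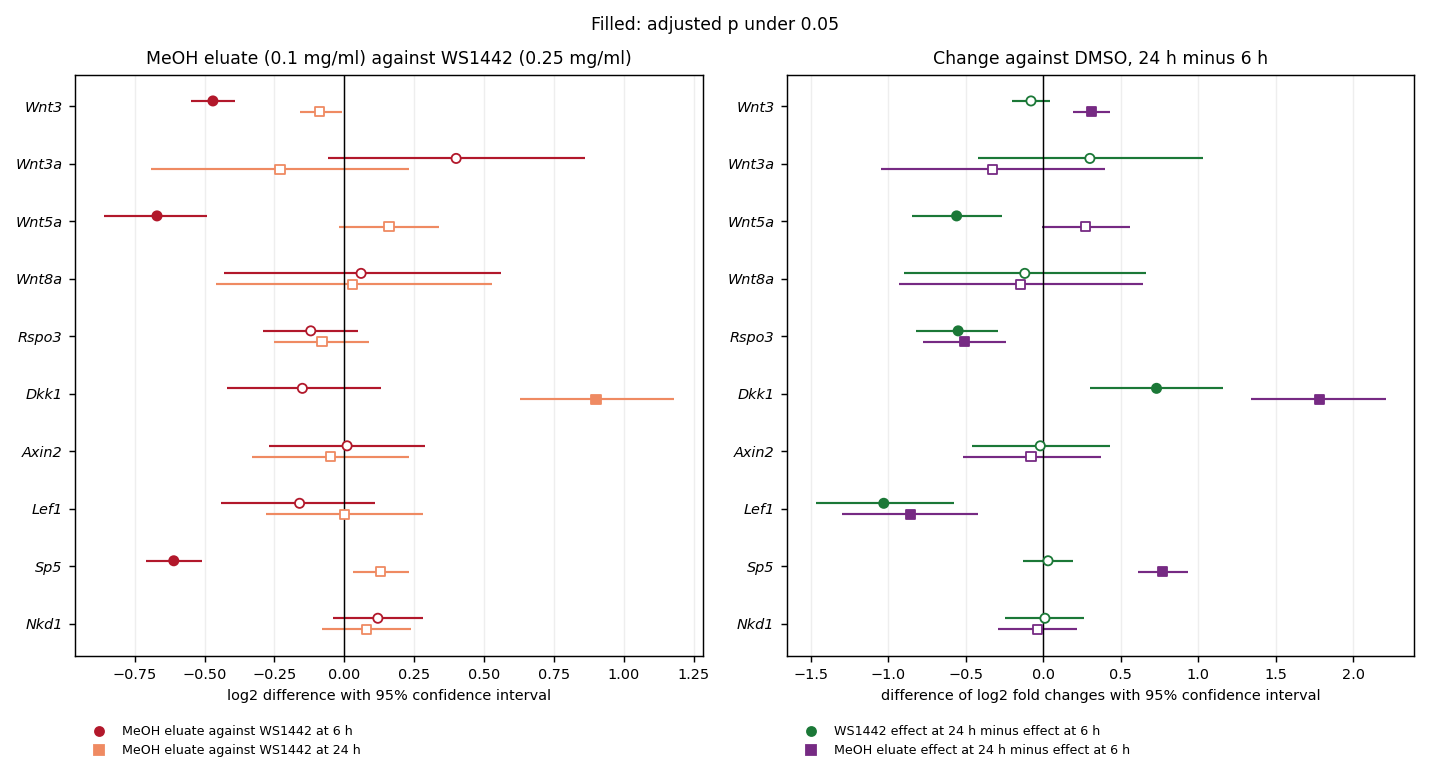
Left, log2 difference between MeOH eluate and WS1442 at 6 h (circles) and 24 h (squares); right, the change against DMSO at 24 h minus that at 6 h for WS1442 (circles) and MeOH eluate (squares), all with 95% confidence intervals from limma and filled where the adjusted p was under 0.05. In the left panel Wnt3, Wnt5a and Sp5 at 6 h lie left of 0, and Dkk1 with MeOH eluate stands farthest from 0 in the right panel, at 1.78.

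Whether the changes against DMSO differed between 24 h and 6 h was tested with an interaction term, which compares changes within slides. For WS1442 it was called for 4 of 10 genes, against 12.7% of all genes: Lef1 (-1.03, SE 0.21, adjusted p = 0.00655), Wnt5a (-0.56, SE 0.13, adjusted p = 0.0154), Rspo3 (-0.55, SE 0.12, adjusted p = 0.0115) and Dkk1 (0.73, SE 0.20, adjusted p = 0.0299). For MeOH eluate it was called for 5 of 10, against 7.75% of all genes: Dkk1 (1.78, SE 0.20, adjusted p = 6.94e-05), Sp5 (0.77, SE 0.07, adjusted p = 1.55e-05), Lef1 (-0.86, SE 0.21, adjusted p = 0.0184), Rspo3 (-0.51, SE 0.12, adjusted p = 0.02) and Wnt3 (0.31, SE 0.06, adjusted p = 0.00311). The fall of Wnt5a was thus larger at 24 h than at 6 h with WS1442, while for MeOH eluate the difference of 0.27 did not pass (adjusted p = 0.26). Without replicate 1 of DMSO at 6 h, 1 of the 4 WS1442 calls was left, that of Lef1. Both Lef1 values were smaller without replicate 2 of DMSO at 6 h, -0.67 for WS1442 and -0.5 for MeOH eluate, and still passed. The second Wnt5a probe gave -0.19 for WS1442 (adjusted p = 0.619) and so did not repeat that call, and the second Rspo3 probe repeated it for WS1442 (-0.67, adjusted p = 0.0173) and not for MeOH eluate (-0.25, adjusted p = 0.416).

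Over the 16 arrays, with the mean of each time point taken off, Wnt3 and Wnt5a had a correlation of 0.93 with each other. Of annotated genes outside the 10, those whose pattern was most like that of Wnt3 were Pcdh7 (r = 0.971), Foxq1 (r = 0.965) and Lefty2 (r = 0.962), and for Wnt5a Mcrip2 (r = 0.977), Spred1 (r = 0.973) and Gm8363 (r = 0.958). For Dkk1 they were L1td1 (r = 0.908), Klk1b22 (r = 0.889) and Gm5434 (r = 0.884), and for Lef1 9930021J03Rik (r = 0.93), Hars (r = 0.894) and Tlcd1 (r = 0.892). These values are descriptions across arrays that share groups and slides, picked as the highest among all annotated genes tested.

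The rest of the pathway was followed in 8 lists with 115 genes, of which 112 were tested. WS1442 at 6 h changed 17 of them, 11 higher and 6 lower, and MeOH eluate at 6 h changed 37, 14 higher and 23 lower. At 24 h WS1442 changed 27, 13 higher and 14 lower, and MeOH eluate 29, 13 higher and 16 lower. Of all genes 4.15% were higher and 1.46% lower with WS1442 at 6 h, and 8.66% and 8.38% with MeOH eluate at 6 h. At 24 h 12.9% were higher and 11.9% lower with WS1442, and 9.63% and 8.59% with MeOH eluate. The WS1442 counts at 24 h lay near these shares. The same shares apply to the counts of single lists below.

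**Figure D4:**
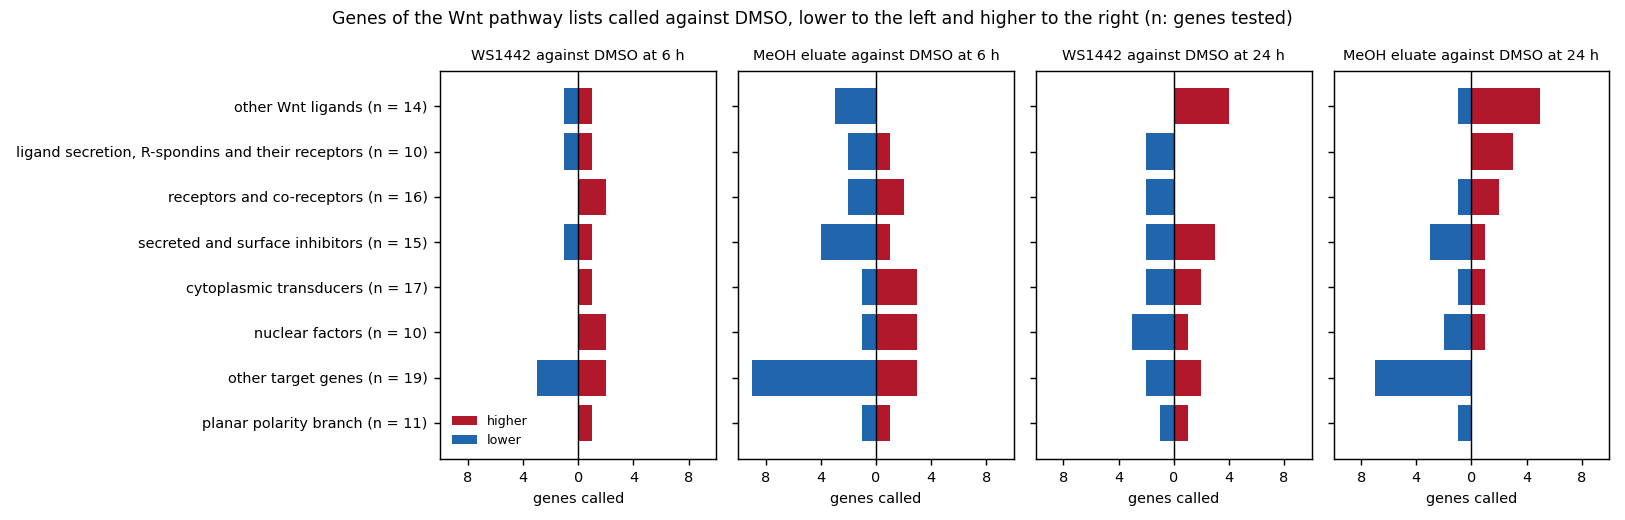
Number of genes called higher (right, red) and lower (left, blue) against DMSO in each of the 8 Wnt pathway lists, 1 panel per comparison, with the number of genes tested beside each list. The longest bars are those of other target genes lower with MeOH eluate, 9 of 19 at 6 h and 7 of 19 at 24 h.

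Of 14 other Wnt ligands, 1 was higher and 1 lower with WS1442 at 6 h and 0 and 3 with MeOH eluate, while at 24 h 4 were higher and 0 lower with WS1442 and 5 and 1 with MeOH eluate. At 6 h Wnt7a, a ligand of neural tissue, was lower with WS1442 (-0.61, SE 0.10, adjusted p = 0.00297) and with MeOH eluate (-0.35, SE 0.10, adjusted p = 0.0215), and Wnt5b, the nearest relative of Wnt5a, fell with MeOH eluate by 1.16 on the log2 scale (SE 0.07, adjusted p = 1.2e-07). At 24 h Wnt6, Wnt7a, Wnt10a and Wnt10b were higher with both, and Wnt7a rose by 1.05 with each (adjusted p = 1.16e-05 for WS1442 and 3.52e-06 for MeOH eluate). Wnt6 rose by 0.92 and 0.88, Wnt10a by 0.61 and 0.84 and Wnt10b by 0.64 and 0.88 for WS1442 and MeOH eluate. The list's median log2 fold change stayed between -0.15 and 0 in the 4 comparisons, since most of its members were not called.

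Of 10 genes of ligand secretion, R-spondins and their receptors, Lgr4, an R-spondin receptor, fell at 6 h by 0.39 with WS1442 (adjusted p = 0.00245) and by 0.60 with MeOH eluate (adjusted p = 9.77e-06). At 24 h its changes were small and of opposite sign, -0.17 with WS1442 (adjusted p = 0.0469) and 0.19 with MeOH eluate (adjusted p = 0.0347). Znrf3, a ligase that removes Frizzled receptors and is opposed by R-spondins, was lower with MeOH eluate at 6 h (-0.62, adjusted p = 0.0387) and with WS1442 at 24 h (-0.92, adjusted p = 0.00313). Rspo1 was higher at 6 h with both (0.76, adjusted p = 0.0102 and 0.51, adjusted p = 0.0281), in the direction of Rspo3.

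Of 16 receptors and co-receptors, 2 were higher and 0 lower with WS1442 at 6 h, and 2 and 2 with MeOH eluate. At 24 h the counts were 0 and 2 with WS1442 and 2 and 1 with MeOH eluate. Ror1, a receptor for Wnt5a, was upregulated at 6 h by 1.25 with WS1442 (SE 0.16, adjusted p = 0.000583) and by 1.38 with MeOH eluate (SE 0.16, adjusted p = 3.43e-05). Fzd9 and Fzd10 were lower with MeOH eluate at 6 h (-1.35, adjusted p = 0.000702 and -0.80, adjusted p = 0.000126), and Fzd7 at 24 h (-0.78, adjusted p = 0.00074). Fzd1 was higher with MeOH eluate at 6 h (0.54, adjusted p = 0.0426). With WS1442 at 24 h Fzd2 and Fzd9 were lower (-0.55, adjusted p = 0.000367 and -0.64, adjusted p = 0.0434). Of 15 inhibitors, 1 was higher and 1 lower with WS1442 at 6 h, and 1 and 4 with MeOH eluate. At 24 h the counts were 3 and 2 with WS1442 and 1 and 3 with MeOH eluate. Of all genes 12.9% were higher and 11.9% lower with WS1442 at 24 h. Cer1, an antagonist of Nodal and Bmp signals, was lower with MeOH eluate at 6 h (-1.81, SE 0.27, adjusted p = 0.000368), with 1 of those 3 arrays well above background, so the size is uncertain. Apcdd1, a surface inhibitor induced by the pathway, was lower at 24 h by 1.07-unit and 1.11-unit log2 differences with WS1442 and MeOH eluate (adjusted p = 6.74e-05 and 3.05e-05). Sfrp4 was not well above background on either DMSO array at 24 h. Its level exceeded theirs at least 1.54-fold under WS1442 (adjusted p = 0.0475) and at least 1.99-fold under MeOH eluate (adjusted p = 0.0108). Wif1, which binds ligands, rose by 0.93 with WS1442 at 24 h (adjusted p = 4.08e-05), where MeOH eluate showed 0.17.

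Of 19 other target genes, 2 were higher and 3 lower with WS1442 at 6 h, 3 and 9 with MeOH eluate at 6 h, 2 and 2 with WS1442 at 24 h, and 0 and 7 with MeOH eluate at 24 h. Mixl1, a homeobox gene of the primitive streak, was lower in all 4 comparisons, by 0.99 and 2.39 on the log2 scale at 6 h with WS1442 and MeOH eluate (adjusted p = 2.97e-06 and 2.53e-11) and by 0.47 and 1.2 at 24 h (adjusted p = 0.00022 and 4.9e-08). T (brachyury), the defining factor of nascent mesoderm, fell with MeOH eluate at 6 h by 1.29 (SE 0.11, adjusted p = 2.06e-06) and stood at -0.29 with WS1442, which was not called. Cyp26a1, which degrades retinoic acid, fell by 1.27 with MeOH eluate at 6 h and by 1.08 at 24 h (adjusted p = 2.9e-06 and 8.19e-06). Cdx2 fell by 1.74 with MeOH eluate at 6 h (adjusted p = 0.00242), where 1 of the 3 MeOH eluate arrays was well above background for it, so the size is uncertain. At 24 h it was not well above background on any MeOH eluate array and was at least 2-fold lower there (adjusted p = 0.00523). Myc was lower at 24 h by 0.57 with WS1442 (adjusted p = 9.11e-05) and by 1.01 with MeOH eluate (adjusted p = 3.64e-07). Id2 and Jun were higher at 6 h with both preparations, Id2 by 0.52 with WS1442 (adjusted p = 0.00806) and Jun by 0.46 (adjusted p = 0.00436). At 24 h Id2 was lower with MeOH eluate (-0.30, adjusted p = 0.0477). The list's median was -0.08 and -0.23 at 6 h and -0.02 and -0.16 at 24 h, WS1442 first.

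**Figure D5:**
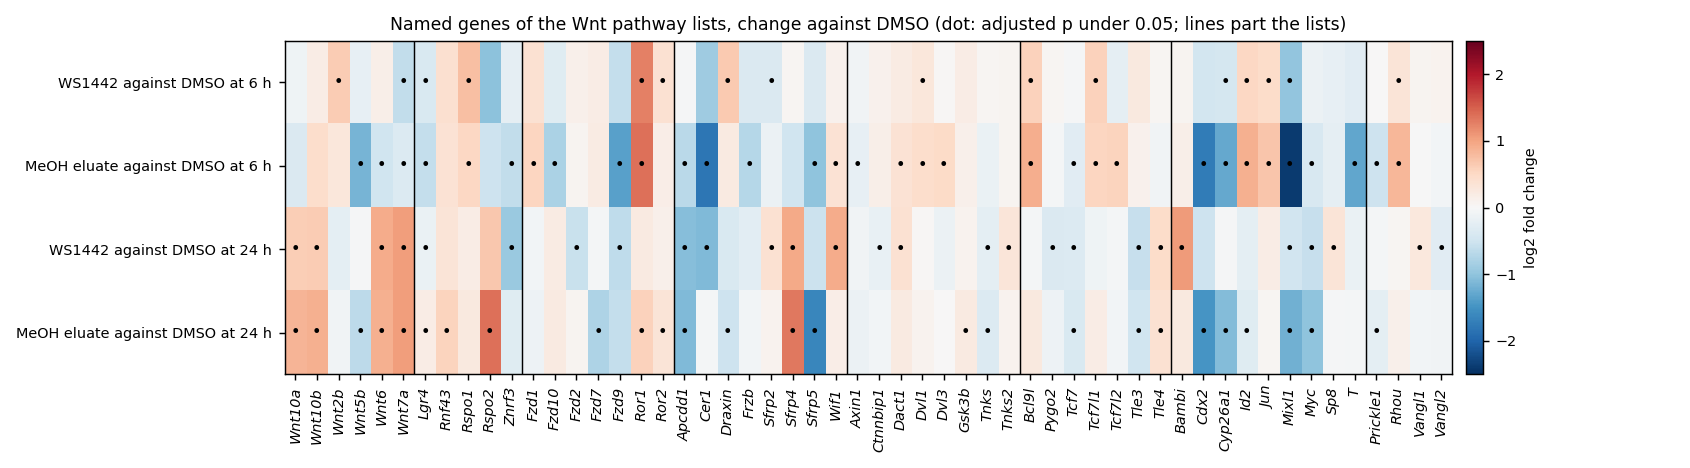
Log2 fold change against DMSO of the named genes of the 8 pathway lists, 1 column per gene and 1 row per comparison, red for higher and blue for lower, with a dot where the adjusted p was under 0.05; vertical lines part the lists. Mixl1 with MeOH eluate at 6 h is the darkest cell, at -2.39, and the 4 ligands Wnt6, Wnt7a, Wnt10a and Wnt10b are red in both 24 h rows.

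The called changes of the cytoplasmic transducers were small. Of 17 cytoplasmic transducers, Dvl1 rose at 6 h by 0.28 with WS1442 (adjusted p = 0.0194) and by 0.43 with MeOH eluate (adjusted p = 0.000307), and no called member of the list changed by more than 0.47. Of 10 nuclear factors, the repressor Tcf7l1 and the co-activator Bcl9l were higher at 6 h with both: Tcf7l1 by 0.57 and 0.53 and Bcl9l by 0.58 and 0.91 (adjusted p = 0.000599, 0.000171, 0.00256 and 9.79e-06). At 24 h the co-repressor Tle3 was lower by 0.57-unit and 0.50-unit log2 differences and its relative Tle4 higher by 0.45 and 0.39 (adjusted p from 0.000159 to 0.002). Of 11 genes of the planar polarity branch, Rhou, a small GTPase induced by Wnt ligands, rose at 6 h by 0.33 with WS1442 (adjusted p = 0.0027) and 0.83 with MeOH eluate (adjusted p = 1.2e-07), and Prickle1 fell by 0.52 with MeOH eluate (adjusted p = 8.67e-05).

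Markers of cell types also changed, and in whole cultures fewer cells of a type and less RNA per cell cannot be told apart. The shares of all genes called in each comparison, given above, apply to the marker counts as well. Of 8 primitive streak and mesoderm markers, Foxf1 was higher and Eomes and Gsc lower with WS1442 at 6 h. With MeOH eluate at 6 h Foxf1 and Mesp2 were higher and Eomes, Gsc and Lhx1 lower. The list therefore moved in both directions, with a median log2 fold change of 0.05 and 0.07. Its summed signal was 8410 to 9910 with DMSO at 6 h, 6060 to 7200 with WS1442 and 3890 to 4270 with MeOH eluate, and Gsc (-0.98 and -2.66) and Lhx1 (-0.33, not called, and -1.21) have the brightest probes in that sum. At 24 h the sum was 10700 to 11300 with DMSO, 11600 to 13300 with WS1442, although 0 markers were called higher and 2 lower, and 6160 to 8760 with MeOH eluate, where 0 were higher and 5 lower.

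Of 6 tested endoderm markers of 8 listed, 0 were higher and 2 lower with WS1442 at 6 h, 0 and 4 with MeOH eluate at 6 h, 1 and 2 with WS1442 at 24 h, and 0 and 3 with MeOH eluate at 24 h. Their sum was 2270 to 2300 with DMSO, 1680 to 1830 with WS1442 and 1280 to 1470 with MeOH eluate at 6 h, and 2730 to 3000, 2430 to 2770 and 1560 to 1890 at 24 h. Gata6 and Afp have the brightest probes in that sum. Gata6 stood at -0.62 and -1.79 at 6 h and -0.35 (not called) and -1.48 at 24 h, WS1442 first. Afp was called only with WS1442 at 24 h, where it was higher (0.51). The list's median was -0.27 and -0.68 at 6 h and -0.32 and -0.72 at 24 h. Of 7 pluripotency markers, Tdgf1, a co-receptor of Nodal, was lower with both preparations at 6 h (-0.45 and -1.17) and at 24 h (-0.32 and -0.69). Nanog was lower with MeOH eluate at 6 h (-0.94) and Sox2 with WS1442 at 24 h (-0.57). The sum of the list, 14900 to 15800 with DMSO at 6 h and 14200 to 15000 on the treated arrays, is mostly the bright Pou5f1 probe (log2 fold change 0 and -0.01), while the list's median was -0.11 and -0.40. At 24 h the sum was 9200 to 9570 with DMSO and 8800 to 10300 on the treated arrays.

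Of 10 tested cardiac markers of 11 listed, Isl1, Hand1 and Myl7 were higher with MeOH eluate at 6 h and 0 were lower, with a sum of 1580 to 1800 against 1320 to 1420 with DMSO. WS1442 at 6 h had 1 higher, Myl7, and a sum of 1350 to 1500. At 24 h 1 was higher and 4 lower with WS1442 and 0 and 5 with MeOH eluate, and the sum was 2290 to 2420 with DMSO, 1700 to 1890 with WS1442 and 1160 to 1340 with MeOH eluate. Myl7, an atrial myosin light chain, went from 0.61 and 1.05 above DMSO at 6 h to -1.17 and -2.02 at 24 h on the log2 scale. Myl7 and Gata4 (-0.72 and -1.38 at 24 h) have the brightest probes in the DMSO sum of 24 h. The list's median was -0.08 and -0.03 at 6 h and -0.07 and -0.42 at 24 h, WS1442 first.

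Of 7 neuroectoderm markers, 0 were higher and 1 lower with WS1442 at 6 h, 1 and 2 with MeOH eluate at 6 h, 4 and 0 with WS1442 at 24 h, and 2 and 1 with MeOH eluate at 24 h. Their sum at 6 h was 6210 to 6260 with DMSO, 5670 to 6350 with WS1442 and 6570 to 7290 with MeOH eluate, when Wnt7a was lower with both. At 24 h it was 4280 to 4580, 6400 to 7150 and 5110 to 5770, when Wnt7a was higher with both. This sum is mostly the bright Nes probe (log2 fold change 0.06 and 0.40 at 6 h and 0.78 and 0.57 at 24 h, WS1442 first). The list's median was -0.15 and -0.23 at 6 h and 0.54 and 0.14 at 24 h. With MeOH eluate at 24 h Sox1 was not called (0.14) and Otx2 was lower. For 6 endothelial markers the sum was 667 to 837 over all groups, with Cdh5 below the background limit throughout the 6 h arrays and the MeOH eluate arrays of 24 h. For 6 primitive blood markers it was 359 to 429 with DMSO, 355 to 446 with WS1442 and 436 to 488 with MeOH eluate at 6 h. At 24 h it was 620 to 630 with DMSO, 424 to 458 with WS1442 and 345 to 444 with MeOH eluate. Tal1 was lower there with both (-1.19 and -1.89), and Hbb-bh1 was higher with MeOH eluate (1.45), with 1 of the 2 DMSO arrays well above background for it. The part of these cell types in the changes of the Wnt genes was not tested.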

How the data were processed

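RNA of 16 samples was labelled with Cy3 and hybridised to one-colour Agilent arrays (ArrayXS Mouse, design on mm9). Per the file headers, the deposited intensity values came from Agilent Feature Extraction 11.5.1.1, with background subtraction and detrending within each array. The authors also deposited a table of quantile normalized intensity values on a linear scale, with a median of 23.735 in every column, which was used as an alternative.

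Samples were grouped by the agent and time in their labels. Non-uniform spots were left out, repeat spots averaged, and log2 intensities quantile normalized. A probe was kept if 1 group or more had all its arrays well above background (36718 of 60273 probes), and the brightest probe stood for each of 29233 genes. The 6 groups were fitted together in limma 3.58.1 (R 4.3.3, empirical Bayes with trend), and p-values were adjusted by Benjamini-Hochberg over all genes, or over all kept probes for second probes. The scripts were tested on simulated data. The number of arrays, 2 or 3 per group, limits the precision.

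The 10 genes and the pathway and marker lists were chosen with earlier results of these data known. Of other genes, those named came from the called pathway genes with the largest changes (up to 4 per list and comparison), and the 3 annotated genes with the highest correlation to a member. RefSeq sequences on GRCm38.p6 were read with Python 3.11.15. Alternatives covered scaling, background, filters, the trend, array weights, the samples fitted, a replicate block, a Student's t-test and each array left out.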

Additional observations from a re-analysis of the deposited data

Results flagged for a closer look

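For 9 pairs of gene and preparation, the change against DMSO differed between 24 h and 6 h by limma's interaction term, adjusted over all genes. With WS1442 the difference in log2 fold change, 24 h minus 6 h, was -1.03 for Lef1, -0.56 for Wnt5a, -0.55 for Rspo3 and 0.73 for Dkk1. With MeOH eluate it was 1.78 for Dkk1, 0.77 for Sp5, 0.31 for Wnt3, -0.51 for Rspo3 and -0.86 for Lef1. The second Wnt5a probe did not repeat its call with WS1442 (-0.19, limma adjusted p = 0.619). The second Rspo3 probe repeated its call with WS1442 (-0.67, adjusted p = 0.0173) and not with MeOH eluate (-0.25, adjusted p = 0.416). Dkk1 with MeOH eluate and Sp5 with MeOH eluate were called with opposite signs at the 2 times. The Sp5 call at 24 h, for a change of 0.18, held under only 7 of 12 other settings. Both Lef1 values rest on 2 DMSO arrays of 6 h with unlike log2 signals, 9.99 and 9.27. Without the lower of them the Lef1 differences were -0.67 with WS1442 and -0.5 with MeOH eluate.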

How the results depend on the processing

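Of the 29 calls for the 10 genes, 8 kinds of refit over all arrays (75th percentile scaling, the deposited table, normexp, no filter, a stricter filter, every probe, no trend, array weights) kept between 27 and 29, and no value reversed its sign under any setting. A fit of the 8 arrays of a time point lost 3 of 20 calls, those of Lef1 at 6 h with both preparations and of Sp5 with MeOH eluate at 24 h. A Student's t-test, which the paper names for pairwise comparisons but not for the arrays, was also run. It counted 5 genes without adjustment for WS1442 at 24 h and 3 for MeOH eluate against WS1442 at 24 h. After Benjamini-Hochberg it counted 0 at 6 h with either preparation, 0 with WS1442 at 24 h, 1 with MeOH eluate at 24 h, and 0 between the preparations at 24 h. With normexp that comparison counted 2 genes, Sp5 joining Dkk1. With 1 array left out, 445 of 464 refitted values kept their call. These include refits without an array outside the comparison, which leave the fold change as it was. The 19 lost calls were all lost without an array of the comparison itself, so the share kept understates the dependence on single arrays. The count was 1 to 2 for the preparations at 24 h and 1 to 4 for the difference between times with WS1442. Of those 4, Dkk1 was lost without any of 4 arrays (values 0.52 to 0.70), Wnt5a without replicate 1 of DMSO at either time, and Rspo3 without replicate 1 of DMSO at 6 h. With MeOH eluate the Rspo3 difference was lost without any of 3 arrays (-0.48 to -0.37), and that of Lef1 without replicate 1 of DMSO at 24 h (-0.78). Wnt3a was called higher with MeOH eluate at 6 h without its replicate 2 (0.64). For samples with the same replicate number, the deviations from the group means correlated at -0.235 to 0.305 over 14 pairs, with 2 pairs over 0.1. In a group of 2 arrays these deviations mirror each other by construction, so the correlations cannot decide whether samples were paired. With the number as a replicate block, 26 of 29 calls held, and the count for the difference between times with WS1442 was 2. Over all genes, 75th percentile scaling moved the share of calls that were higher with WS1442 from 74% to 85.1% (6 h) and from 52.1% to 40.2% (24 h). With MeOH eluate it moved from 52.9% to 42.9% (24 h). WS1442 at 6 h called 1640 genes, against 983 without the trend, 558 with the replicate block and 481 in the fit of 8 arrays. The scatter between arrays of Wnt3a and Wnt8a, and the low signal of Wnt8a, limit what could be detected for these genes.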
